A study of Mus musculus with 6 samples.

Results

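Valproic acid (VPA) and sodium butyrate (NaBu) were compared directly in mouse E14 embryonic stem cells by setting the 2 arrays of cells given 0.5 mM VPA against the 2 arrays of cells given 0.2 mM NaBu, 4 of the 6 arrays of the series. E14, an established line of mouse embryonic stem cells, grew in every group on embryonic fibroblasts whose division had been stopped with mitomycin C. The medium held 15% FBS and leukemia inhibitory factor (LIF), and each compound was present for 16 h. The other 2 arrays came from untreated cells and serve here only as the background level. Arrays were paired within a replicate number, so that VPA 1 was set against NaBu 1 (set 1) and VPA 2 against NaBu 2 (set 2), and all 19938 genes with a probeset of 1 symbol were tested. The doses differ, so compound and dose cannot be told apart in any value below. The RNA came from whole cultures with their feeder cells, so fewer cells of a type and less RNA per cell cannot be told apart either.

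Both agents are short-chain fatty acids that inhibit the class I histone deacetylases, the enzymes that remove acetyl groups from histone tails. VPA has a branched carbon chain and is used as an antiepileptic drug, while butyrate has a straight chain and is made by gut bacteria. Acetylated histones are typical of active genes, yet inhibitors of deacetylases both raise and lower the expression of many genes. In stem cells held in LIF, a network of transcription factors around Oct4 (Pou5f1), Sox2 and Nanog keeps the cells pluripotent. Serum and LIF favour self-renewal, and neuronal genes are held down in these cells by REST and its deacetylase-containing corepressors.

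The arrays carried the markers of the labelled cells. The mean over 8 stem cell markers, among them Pou5f1 and Nanog, was 11.11 and 11.07 (log2) with VPA, 11.48 and 11.21 with NaBu, and 11.50 and 11.29 untreated. The mean over 15 feeder fibroblast markers was 6.79 and 7.78 with VPA, 7.04 and 7.92 with NaBu, and 6.98 and 7.62 untreated, in the order of replicate 1 and 2, so the arrays numbered 2 had the higher fibroblast marker level in every group. The first principal component of the 4 arrays, with 59.9% of their variance, separated the replicate numbers. The second, with 25.7%, separated the compounds, with scores of -19.8 and -5.1 for VPA and 17.2 and 7.7 for NaBu.

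The 250 bases before the annotated start are printed for 4 genes that were higher with VPA and for 2 pluripotency genes that were lower, all described below. The first 4 hold the octamer ATGCAAAT, the motif read by POU-domain factors such as Oct4, and the last pair, and Prkcb as well, hold the GC box GGGCGG, read by Sp1-type factors. The sequences are RefSeq's of GRCm38.p6, written 5′ to 3′ on the gene's strand, with either motif, read on both strands, in capitals. They were chosen after both the values and the motifs had been seen.
Gpm6a, first of its 2 entries, chr8:54779184-54779433, plus strand: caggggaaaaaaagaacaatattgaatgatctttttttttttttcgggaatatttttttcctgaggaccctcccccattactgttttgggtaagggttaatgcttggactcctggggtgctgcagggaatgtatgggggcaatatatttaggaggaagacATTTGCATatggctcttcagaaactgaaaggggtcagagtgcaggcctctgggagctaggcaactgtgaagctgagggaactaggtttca
Prkcb, chr7:122288875-122289124, plus strand: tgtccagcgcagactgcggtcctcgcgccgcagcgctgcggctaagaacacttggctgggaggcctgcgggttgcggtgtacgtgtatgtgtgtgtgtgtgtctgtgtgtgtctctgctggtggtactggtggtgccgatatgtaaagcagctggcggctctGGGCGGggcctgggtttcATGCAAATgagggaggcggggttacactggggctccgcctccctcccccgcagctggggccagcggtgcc
Aldh1a2, chr9:71215539-71215788, plus strand: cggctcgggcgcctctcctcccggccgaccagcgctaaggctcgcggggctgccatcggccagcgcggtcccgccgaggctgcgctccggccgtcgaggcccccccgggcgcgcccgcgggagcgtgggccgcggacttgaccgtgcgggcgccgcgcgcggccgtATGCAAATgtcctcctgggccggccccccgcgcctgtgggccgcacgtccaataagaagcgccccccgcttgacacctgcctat
H2ac1, chr13:23934187-23934436, plus strand: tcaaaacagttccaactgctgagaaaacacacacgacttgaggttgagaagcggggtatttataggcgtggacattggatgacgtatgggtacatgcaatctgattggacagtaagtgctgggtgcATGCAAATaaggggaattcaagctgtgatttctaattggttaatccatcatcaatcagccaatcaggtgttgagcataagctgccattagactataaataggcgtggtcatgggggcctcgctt
Fgf4, chr7:144861136-144861385, plus strand: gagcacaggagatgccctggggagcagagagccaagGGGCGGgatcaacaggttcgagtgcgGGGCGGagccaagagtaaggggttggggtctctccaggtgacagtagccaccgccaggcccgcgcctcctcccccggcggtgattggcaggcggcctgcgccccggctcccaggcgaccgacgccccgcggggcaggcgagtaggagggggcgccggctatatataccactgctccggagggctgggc
Tet2, chr3:133544391-133544640, minus strand: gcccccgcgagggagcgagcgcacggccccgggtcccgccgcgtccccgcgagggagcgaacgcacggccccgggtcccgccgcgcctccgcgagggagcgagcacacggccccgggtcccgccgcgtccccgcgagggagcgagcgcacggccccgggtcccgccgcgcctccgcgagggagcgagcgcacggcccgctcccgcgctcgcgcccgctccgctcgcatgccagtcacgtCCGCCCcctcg
The octamer stood in 526 of 32851 promoter windows of this length (1.6%), and the GC box in 32.7%. For genes called below with dim genes left out, the GC box stood in 46.2% of windows of higher and 44.4% of windows of lower genes. It thus did not separate the directions. The median number of CG dinucleotides per window was 11 for both groups, against 6 over all windows. The motifs do not overlap each other. A match describes the letters of a window and is not a binding site.

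Across all genes, a single gene, Gpm6a, differed between the compounds at an adjusted p under 0.05 in limma with the replicate block (Benjamini-Hochberg), which is 0.00502% of the genes tested. At an unadjusted p under 0.05 there were 1914 genes (9.6%), of which 990 were higher with VPA (4.97%) and 924 lower (4.63%). When every array was centred on its median gene, which moved the median difference from 0.001 to -0.034, the split was 634 higher among 1840. Without the replicate block limma called 0 genes, with 526 at an unadjusted p under 0.05.

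The differences were wider in set 1 than in set 2. The standard deviation of the difference between VPA and NaBu over all genes was 0.27 in set 1 and 0.22 in set 2, and 115 genes differed by at least 1 (log2) in set 1 against 8 in set 2. Across the 19938 genes, which are not independent replicates, the differences of the 2 sets had a Pearson r of 0.18 and a Spearman coefficient of 0.19. They had the same sign for 56.2% of genes, being higher with VPA in both sets for 27.5% and lower in both for 28.6%. These shares are the background of every list count of genes higher or lower in both sets. A difference of at least 0.5 in the same direction in both sets was found for 57 genes (0.286%), 22 higher with VPA (0.11%) and 35 lower (0.176%).

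When the test was limited to the 9969 genes with a mean at or above the median level of the 4 arrays, limma with the same block called 81 genes (0.813%). Of these, 19 were higher with VPA (0.191%) and 62 lower (0.622%). A cut at a log2 level of 6 gave 61 calls among 9414 genes, 12 higher and 49 lower, and all 61 were among the 81. For 62 of the 81 both VPA arrays lay on one side of both NaBu arrays, against 30.7% of all genes, but the calls rest on the same arrays. For 14 of the 81 (6 higher, 8 lower) the mean of one compound lay below the median level of 5.78, so that these passed the filter only through the compound where they were high: Aldh1a2, Aqp11, Arhgap18, Bmp7, Epha1, Nnat, Ccdc137, Dpp4, Hormad2, Nmnat1, Plekhg1, Prmt8, Soga3 and Tgm3. Their calls are not used as support. Taking all 81, the untreated mean lay nearer the NaBu mean than the VPA mean for 61 of the 62 lower genes and for the 19 higher ones. The share was 60.2% over all genes and 78.3% over the 1914 genes at an unadjusted p under 0.05. The 81 include the 14 and were chosen for a gap between the compounds, so these counts are not used as support. Calls named below as made among the brighter genes are those at or above the median level. None of these genes was called in the fit over all genes. The intervals printed beside their adjusted p-values are from the fit over all genes.

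**Figure D1:**
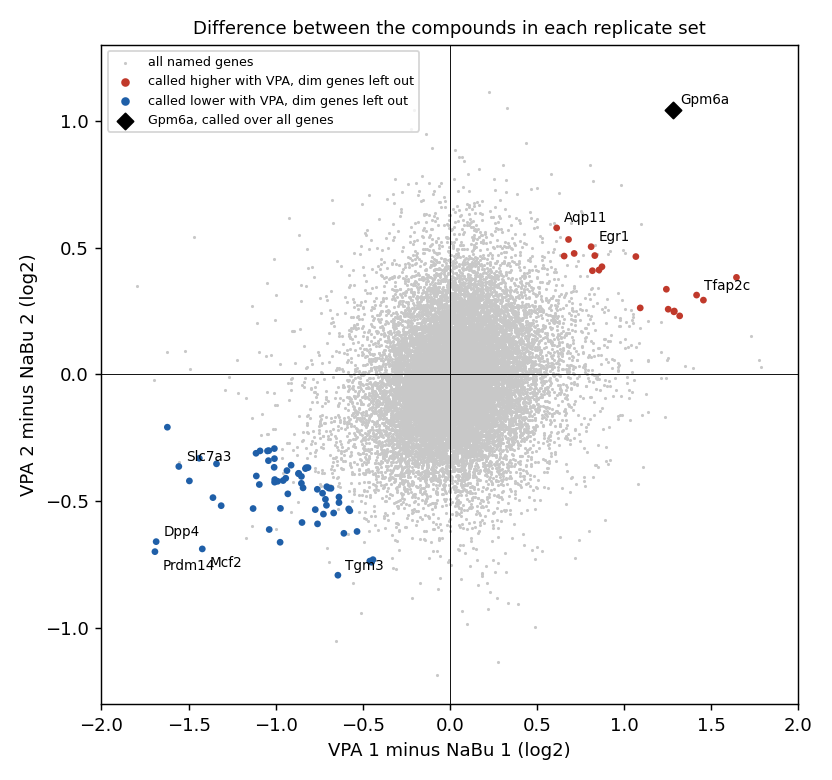
Difference between VPA and NaBu (log2) in replicate set 1 (horizontal axis) against replicate set 2 (vertical axis), 1 grey point per named gene. Red and blue points are the 19 and 62 genes called among the brighter genes by limma with the replicate block, and the black diamond is Gpm6a, at 1.28 in set 1 and 1.04 in set 2. The axes leave out 1 gene.

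Gpm6a encodes a membrane glycoprotein of the proteolipid family that is abundant on growing axons. It measured 5.11 and 5.47 with VPA, 3.83 and 4.42 with NaBu, and 3.97 and 4.48 untreated. Both VPA arrays stood above every other array, and the NaBu arrays lay beside the untreated ones. The mean was 5.29 ± 0.25 (SD, n = 2) with VPA and 4.13 ± 0.42 (SD, n = 2) with NaBu, a difference of 1.16 (95% interval 0.86 to 1.46), or 2.24-fold, with an adjusted p of 0.0443 in limma. The adjusted p was 1.00 without the block, 0.341 with median centring, 0.527 with quantile normalization and 0.0505 with the mean of all probesets of a gene, so these settings end the call. Leaving out 1 array breaks a pair, so those fits also drop the block and cannot show what the array alone does; their differences ran from 0.87 (without NaBu 1) to 1.46 (without NaBu 2).

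The 11 other genes with the largest statistics in this direction had adjusted p-values from 0.168 to 0.248 in limma, and all lay below the median level of the genes. Slc16a7, which encodes the monocarboxylate transporter MCT2 that carries pyruvate, lactate and ketone bodies, measured 4.24 and 4.47 with VPA, 3.41 and 3.71 with NaBu, and 3.30 and 3.70 untreated, a difference of 0.79 (0.50 to 1.08). C1ql4, a secreted C1q-like protein, measured 5.78 and 5.85 with VPA, 4.98 and 5.02 with NaBu and 5.16 and 5.27 untreated, with 0.81 between VPA and NaBu. For both genes the VPA arrays were the highest of all 6.

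Itga8, the integrin alpha 8 subunit, measured 6.36 and 5.91 with VPA against 5.26 and 5.32 with NaBu, and Esr2, the estrogen receptor beta, 5.30 and 4.98 against 4.55 and 4.33. Gpr62, an orphan receptor, measured 5.52 and 5.34 with VPA, 4.89 and 4.63 with NaBu and 5.68 and 5.40 untreated. There the untreated arrays lay beside the VPA arrays, and the NaBu arrays stood below both groups. The remaining genes were Klf17, Tspan17, H2al2a, Gpr50, Prokr2 and Cthrc1, and of the 12 only Klf17 had arrays that overlapped between the compounds.

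**Figure D2:**
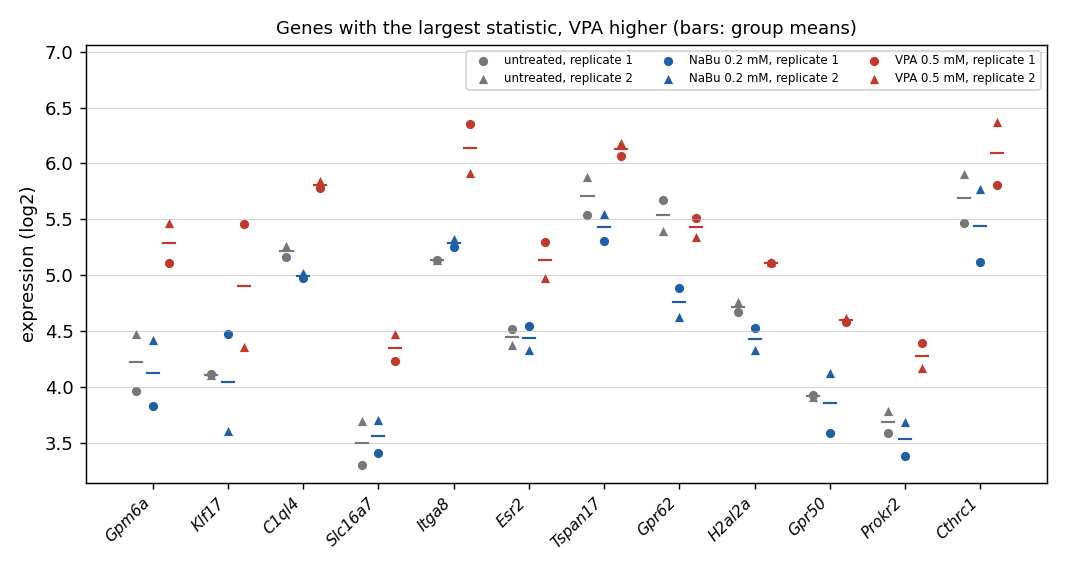
Log2 expression on the 6 arrays for the 12 genes with the largest statistic in the direction of higher with VPA; circles are replicate 1, triangles replicate 2 and short bars group means. For Gpm6a both VPA arrays (5.11 and 5.47) lie above all other arrays, and for Gpr62 the NaBu arrays (4.89 and 4.63) lie below all others.

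The 19 genes called higher among the brighter ones included transcription factors. Egr1, an immediate early transcription factor, measured 7.86 and 8.17 with VPA, 7.05 and 7.67 with NaBu and 6.81 and 7.48 untreated, a difference of 0.66 (0.35 to 0.96; adjusted p = 0.0327 in limma among the brighter genes). Tfap2c, the AP-2 gamma factor of trophectoderm and germ cells, measured 9.01 and 8.64 against 7.59 and 8.33, and its untreated values were 7.35 and 8.39. Its difference was 1.42 in set 1 and 0.31 in set 2. Nnat, an imprinted gene for the membrane proteolipid neuronatin, measured 6.87 and 5.90 against 5.42 and 5.61, which gave 1.46 and 0.29; it passed the filter only through VPA. For these genes both VPA arrays lay above both NaBu arrays, with the wider gap in set 1.

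Prkcb, the protein kinase C beta gene, measured 7.32 and 6.66 with VPA and 6.06 and 6.41 with NaBu. Aldh1a2, which makes retinoic acid, measured 6.95 and 5.59 against 5.63 and 5.36, and here VPA 2 lay between the NaBu arrays. H2ac1, a histone H2A gene best known from testis, measured 10.77 and 9.97 against 9.48 and 9.72. These 3 genes hold the octamer in the windows above, out of 13 promoter windows found for the 19 genes. That is 23.1%, against 1.6% of all windows. The genes were called from these data, the motif had been seen, and Aldh1a2 passed the filter only through VPA. The share is therefore not used as support, and its cause was not tested. Others called included the vesicular glutamate transporter Slc17a7 (0.77), the tight junction gene Cldn6 (0.68), the lysosomal lipase Lipa (0.65), Sec11c (0.65), the protease gene Plat (0.61), Galnt12 (0.61) and Id2 (0.60), each as VPA minus NaBu. Arhgap18 (1.01), Epha1 (0.77), Aqp11 (0.60), Bmp7 (0.56) and Aldh1a2 passed the filter only through VPA. The arrays of Sec11c, Plat, Id2 and Bmp7 overlapped between the compounds. Those of this paragraph other than Cldn6, Id2, Plat and H2ac1 were named after their values had been seen.

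In the other direction the largest statistic belonged to Mcf2, the Dbl proto-oncogene. It measured 6.49 and 6.28 with VPA, 7.92 and 6.97 with NaBu and 8.18 and 7.11 untreated, a difference of -1.05 (-1.43 to -0.68). Prdm14, a factor of naive pluripotency and the germ line, measured 5.86 and 6.21 with VPA, 7.55 and 6.91 with NaBu and 7.54 and 7.02 untreated. Its difference, -1.20 (-1.62 to -0.77), was the lowest of all 19938 genes, with an adjusted p of 0.168 in limma over all genes and 0.00325 among the brighter ones. Both VPA arrays of both genes lay below all 4 other arrays.

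Dpp4, a cell-surface peptidase, measured 5.87 and 5.58 with VPA against 7.55 and 6.24 with NaBu (-1.17). Cyp2b23, a cytochrome P450, measured 4.66 and 5.08 with VPA, 5.83 and 5.72 with NaBu and 6.58 and 5.94 untreated. Slc5a11, a sodium-coupled inositol carrier, measured 5.25 and 4.97 with VPA, 6.38 and 5.57 with NaBu and 6.84 and 5.58 untreated. In all 3 genes the VPA arrays were below the NaBu arrays. Epb41l4a (-0.82) was also called among the brighter genes. Soga3 (-0.82), Tgm3 (-0.72) and Dpp4 entered that test only through NaBu, while Cyp2b23, Slc5a11, Accsl, Tmem106a, Pakap and Elobl were too dim to enter that test.

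**Figure D3:**
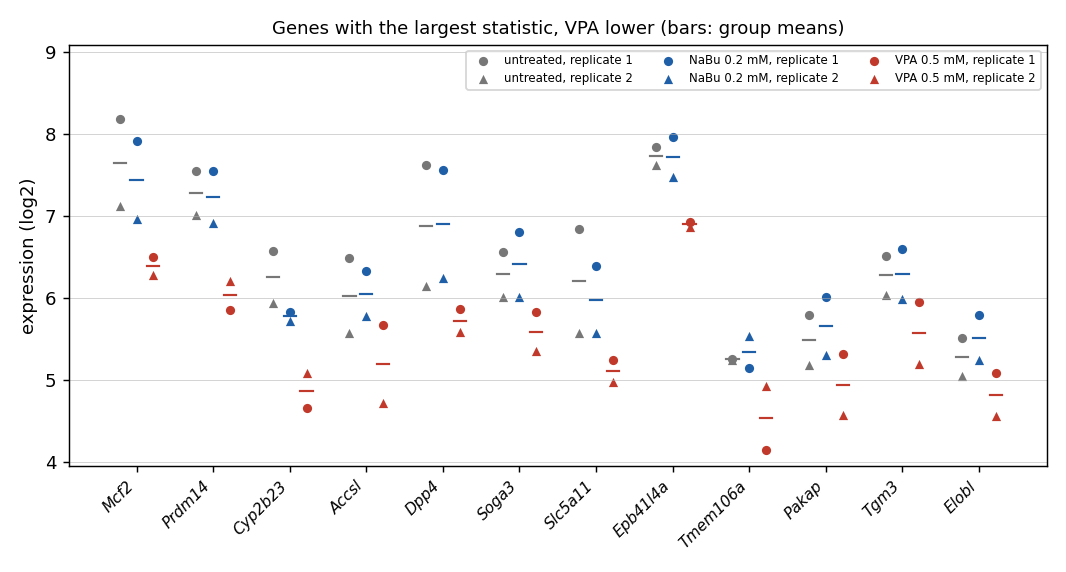
Log2 expression on the 6 arrays for the 12 genes with the largest statistic in the direction of lower with VPA; circles are replicate 1, triangles replicate 2 and short bars group means. The VPA arrays of Mcf2 (6.49 and 6.28) and Prdm14 (5.86 and 6.21) lie below all other arrays of the same gene.

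Growth factors were among the other genes called lower in that test. Fgf15, a fibroblast growth factor, measured 7.06 and 7.09 with VPA and 7.91 and 7.68 with NaBu (-0.72, -1.02 to -0.42). Fgf17 measured 5.79 and 5.95 against 6.90 and 6.35 (-0.76). Vegfc, the lymphatic growth factor (-0.92), Sall1, a zinc finger factor (-0.71), Gli2, a Hedgehog effector (-0.69), and Bcat1, the cytosolic branched-chain aminotransferase (-0.61), are named after their values had been seen, as are Enpp3 (-0.92) and Msantd3 (-0.83). Slc7a3, a carrier of cationic amino acids, measured 9.88 and 10.25 with VPA and 11.44 and 10.62 with NaBu, a difference of -0.96 (-1.44 to -0.48). Both VPA arrays were again the lower ones in each of these except Enpp3, whose replicate sets stood far apart in level.

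Of 38 core and naive pluripotency genes measured, 33 were lower with VPA, and 29 were lower in both sets (28.6% of all genes). At an unadjusted p under 0.05 there were 18 lower and 0 higher (4.63% and 4.97% of all genes), and for 18 both VPA arrays lay below both NaBu arrays (14.6% of all genes). The median difference was -0.33 over both sets, -0.44 in set 1 and -0.19 in set 2, beside 0.001 over all genes. Genes of this list are bright, and among the 2107 genes at a log2 level of 9 or more the median was -0.046 and 42.4% were lower in both sets. The untreated mean lay nearer the NaBu mean for 34 of the 38 genes (60.2% of all genes). The share was 78.3% over all genes at an unadjusted p under 0.05, which 18 of the 38 passed. This count is not used as support. Over the same arrays the 8 stem cell markers had a mean difference of -0.37 in set 1 and -0.14 in set 2, and the feeder markers one of -0.25 and -0.14.

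Pou5f1, which encodes Oct4, measured 11.12 and 11.14 with VPA, 11.68 and 11.56 with NaBu and 11.90 and 11.63 untreated, a difference of -0.50 (-0.79 to -0.21; adjusted p = 0.295 in limma). Nanog measured 11.04 and 10.79 with VPA and 11.70 and 11.03 with NaBu, so that its arrays just overlapped, and its difference was -0.45 (-0.77 to -0.13). Sox2, the partner of Oct4, did not share this order: it measured 11.58 and 11.48 with VPA and 11.63 and 11.11 with NaBu, with -0.04 in set 1 and 0.37 in set 2. The interval of its difference ran from -0.16 to 0.48.

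Tet2, a 5-methylcytosine dioxygenase, and Fgf4, a growth factor driven by Oct4 and Sox2 in these cells, were called among the brighter genes beside Prdm14. Tet2 measured 7.85 and 8.02 with VPA, 8.94 and 8.46 with NaBu and 8.81 and 8.55 untreated (-0.76, -1.12 to -0.41; adjusted p = 0.0298 in limma). Fgf4 measured 7.48 and 7.42 with VPA, 8.52 and 7.76 with NaBu and 8.70 and 7.91 untreated (-0.69, -1.06 to -0.33; adjusted p = 0.0397). Their promoter windows above hold 1 and 2 GC boxes, a motif found in 18 of the 30 windows of this list (60%). It stood in 32.7% of all windows and in 46.2% of those of the genes called higher.

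Utf1, a chromatin-bound stem cell factor, differed by -0.54, the nuclear receptor gene Nr0b1 by -0.55, Tbx3 by -0.52 and Gdf3, a TGF-beta ligand, by -0.64, all with an unadjusted p under 0.05 and all named after their values had been seen. Esrrb (-0.29, -0.59 to 0.01), Zfp42 (-0.32, -0.64 to 0.01) and Klf4 (-0.12, -0.41 to 0.17) had intervals that reached 0. In Utf1, Nr0b1, Tbx3, Gdf3 and Esrrb both VPA arrays lay below both NaBu arrays, and in Zfp42 and Klf4 they overlapped.

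**Figure D4:**
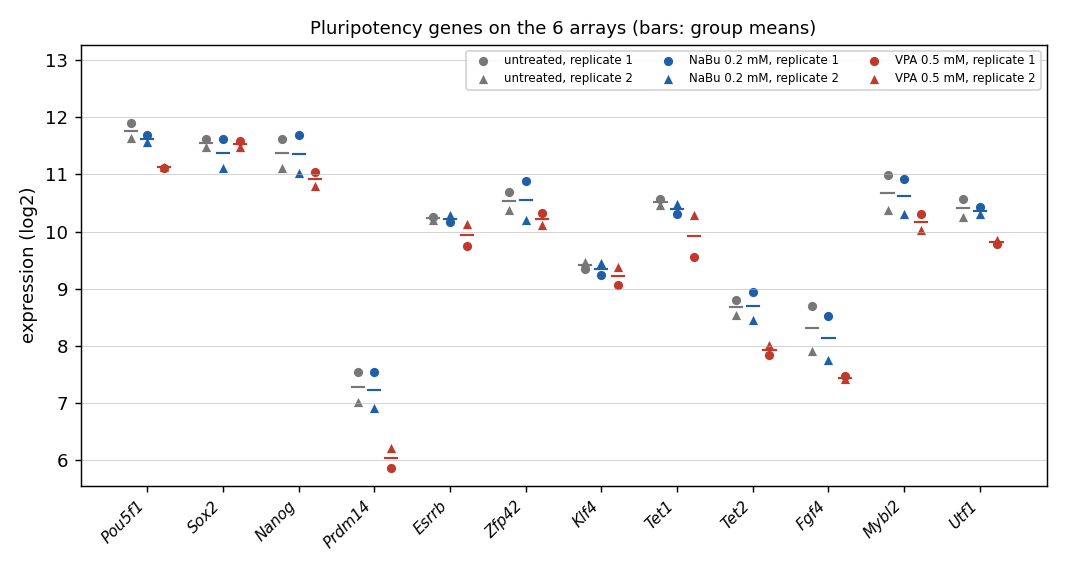
Log2 expression of 12 pluripotency genes on the 6 arrays; circles are replicate 1, triangles replicate 2 and short bars group means. The VPA arrays lie below the NaBu and untreated arrays for Pou5f1, Prdm14, Esrrb, Tet1, Tet2, Fgf4, Mybl2 and Utf1. Those of Sox2 (11.58 and 11.48) lie between the NaBu arrays.

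The signals that keep stem cells self-renewing were split. Of 21 LIF, BMP and Id genes, 8 were higher in both sets and 5 lower. Id1, an inhibitor of differentiation factors that answers to BMP, measured 9.49 and 9.13 with VPA and 8.43 and 8.91 with NaBu (0.64, 0.25 to 1.03). Id2 measured 9.84 and 10.54 against 9.13 and 10.07, and Id3, named after its value had been seen, differed by 0.37. Socs3, a feedback inhibitor of LIF signalling, differed by 0.39. Within each replicate set VPA stood above NaBu for these 4 genes, although the arrays of Id2 and Id3 overlapped across sets. Only higher members are named here. Of the 21 genes 9 were lower with VPA, and the lowest difference in the list was -0.735.

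The 18 histone deacetylases and sirtuins were even, with 9 higher and 9 lower. Their median was -0.005 over both sets but 0.03 and 0.008 in the single sets. Hdac1 measured 11.71 and 11.25 with VPA and 11.62 and 11.22 with NaBu, a difference of 0.06 (-0.23 to 0.35). Hdac2 differed by -0.11 (-0.41 to 0.19) and Hdac3 by 0.01 (-0.29 to 0.32), and the arrays of all 3 overlapped. Sirt7, a nucleolar sirtuin, differed by 0.40 (0.09 to 0.71).

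The subunits that bring deacetylases to DNA leaned to lower values. Of 34 corepressor subunits, 29 were lower with VPA and 21 lower in both sets, with a median of -0.13. Rcor2, a CoREST protein of stem cells, measured 8.61 and 8.71 with VPA and 9.48 and 9.10 with NaBu (-0.63, -0.96 to -0.30; adjusted p = 0.0397 in limma among the brighter genes). Rest, the repressor of neuronal genes, measured 9.82 and 9.54 against 10.34 and 10.08 (-0.53, -0.82 to -0.24; adjusted p = 0.26 over all genes). Tbl1xr1 differed by -0.57 and its relative Tbl1x, named after its value had been seen, by -0.47, both being parts of the NCoR complex. In these 4 genes both VPA arrays lay below both NaBu arrays, and the genes between log2 levels of 7 and 9 as a whole had 37.8% lower in both sets.

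Of 26 histone acetyltransferase genes and their subunits, 20 were lower and 13 lower in both sets, with a median of -0.13. Lower in both sets were 28.6% of all genes and 37.8% of genes between log2 levels of 7 and 9. Kat2b, which encodes PCAF, measured 5.90 and 6.19 with VPA, 6.91 and 6.52 with NaBu and 7.19 and 6.87 untreated (-0.67, -1.03 to -0.31; adjusted p = 0.0397 in limma among the brighter genes). Crebbp, the CBP acetyltransferase, differed by -0.31 (-0.60 to -0.02). Of 39 Polycomb and Trithorax genes, 30 were lower, 22 of them in both sets, among them Kdm2b (-0.53) and the Polycomb gene Phc1 (-0.32). Crebbp and Phc1 were named after their values had been seen.

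DNA methylation genes had 16 of 20 members lower and 12 lower in both sets. Lower in both sets were 28.6% of all genes and 37.8% of genes between log2 levels of 7 and 9. Zfp57, which protects the methylation of imprinted loci, measured 10.21 and 10.01 with VPA, 11.18 and 10.54 with NaBu and 11.13 and 10.53 untreated (-0.75, -1.07 to -0.43; adjusted p = 0.0222 in limma among the brighter genes). Tet1 measured 9.56 and 10.28 against 10.31 and 10.49 (-0.48). VPA lay below NaBu on both arrays for both genes.

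Histones were even, with 19 of 37 measured genes higher and 18 lower. H2bc1, a testis-type H2B gene, measured 8.30 and 7.66 with VPA and 7.39 and 7.40 with NaBu (0.58, 0.23 to 0.94). H3c7 was dim on every array, at 3.18 and 3.18 against 3.51 and 3.91.

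Genes of cell division were in most cases slightly lower with VPA. Of 49 mitosis and spindle genes 43 were lower with VPA, 37 in both sets, with a median of -0.15, and 3 had an unadjusted p under 0.05 (4.63% of all genes were lower at that level). Of 45 DNA replication genes 42 were lower, 31 in both sets, with a median of -0.13, and 2 had an unadjusted p under 0.05. The mean level of both lists was above 9, where 42.4% of all genes were lower in both sets. Without NaBu 1 the replication median was -0.02 and without NaBu 2 it was -0.27, while the mitosis median ran from -0.07 (without VPA 2) to -0.16 (without NaBu 2).

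Nusap1, a spindle microtubule protein, measured 7.86 and 7.70 with VPA and 8.24 and 8.15 with NaBu (-0.42, -0.71 to -0.13). Mcm10, a replication initiation factor, measured 8.79 and 8.68 against 9.30 and 9.16 (-0.49, -0.78 to -0.20). Plk1, the mitotic kinase, differed by -0.30 and Mybl2, a regulator of cell cycle genes, by -0.45. Both VPA arrays lay below both NaBu arrays in each.

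Ccnd1, the G1 cyclin D1, measured 8.78 and 9.19 with VPA, 10.12 and 9.54 with NaBu and 10.17 and 9.47 untreated. Its difference was -0.85 (-1.27 to -0.42; adjusted p = 0.0319 in limma among the brighter genes), with -1.34 in set 1 and -0.35 in set 2. Cdk6 differed by -0.42 and the inhibitor gene Cdkn1b by -0.40, while Myc differed by -0.23 with an interval from -0.53 to 0.06. No probeset carried the symbol Cdkn1a alone, so that common target of deacetylase inhibitors was not analysed here.

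Genes known from other work to respond to deacetylase inhibitors were counted in the direction of that response. Of 35 genes known to be induced, 25 were higher with VPA than with NaBu, 19 of them in both sets (27.5% of all genes) and 7 at an unadjusted p under 0.05 (4.97%). The median was 0.09, with 0.23 in set 1 and 0.02 in set 2. Clu, the secreted chaperone clusterin, measured 9.41 and 8.95 with VPA, 8.35 and 8.71 with NaBu and 7.94 and 8.47 untreated (0.65, 0.26 to 1.03). Gadd45g went against the list, at 7.75 and 7.60 with VPA and 8.83 and 7.84 with NaBu (-0.66).

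Of 22 genes known to be repressed by inhibitors, 19 were lower with VPA, 18 of them in both sets (28.6% of all genes, 42.4% of genes at a level of 9 or more), and 12 had both VPA arrays below both NaBu arrays (14.6% of all genes). Their median was -0.16, with -0.20 and -0.16 in the 2 sets. Ccnd1 and Mybl2 belong to this list.

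Of 54 neuronal and synaptic genes, 35 were higher with VPA, 20 were higher in both sets and 11 lower (27.5% and 28.6% of all genes). At an unadjusted p under 0.05 there were 10 higher and 2 lower (4.97% and 4.63% of all genes). The median was 0.04, and the one member called among the brighter genes, Rcor2, was lower (-0.63). Nefm, a neurofilament subunit, measured 6.84 and 4.83 with VPA and 5.06 and 4.77 with NaBu, so that its difference of 0.92 came from the array VPA 1, with 1.78 in set 1 and 0.06 in set 2. Nefl, the light subunit, measured 7.68 and 6.94 against 6.84 and 6.66 (0.56). Scn2a, a neuronal sodium channel, differed by 0.43 on the brightest of its 14 probesets. L1cam, an axonal adhesion molecule, differed by 0.39 and Chga, a granule protein, by 0.37. Scn2a, L1cam and Chga were named after their values had been seen and taken from the higher members. In these genes and Nefl both VPA arrays lay above both NaBu arrays. The mean of 6 neuron markers was 6.31 and 6.35 with VPA and 6.07 and 6.35 with NaBu.

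Other lineages had members past an unadjusted p of 0.05, a threshold passed by 4.97% of all genes in the higher and 4.63% in the lower direction. There were 1 higher and 4 lower among 23 primed epiblast genes, 2 and 3 among 27 neural progenitor genes, 3 and 1 among 26 endoderm genes, and 3 and 0 among 28 mesoderm genes. Of the 27 neural progenitor genes 10 were higher in both sets and 7 lower, with Nes, an intermediate filament gene, at 0.40 and the Notch ligand Dll1 at -0.44. Of the 28 mesoderm and primitive streak genes 13 were higher in both sets and 1 lower, with Kdr at 0.47 (0.18 to 0.76). Otx2, an epiblast factor, measured 8.46 and 8.33 with VPA and 9.15 and 8.70 with NaBu (-0.53, -0.83 to -0.22), and Gata6, an endoderm factor, differed by -0.41. Both of these had VPA arrays below NaBu arrays.

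Germ cell and trophectoderm genes had medians that differed in sign between the sets. So did all genes together, with a median of 0.026 in set 1 and -0.029 in set 2. The median over 48 germ cell and meiosis genes was 0.29 in set 1 and -0.10 in set 2, and over 22 trophectoderm genes it was 0.18 and -0.08. Of the 48 genes 14 were higher in both sets and 8 lower (27.5% and 28.6% of all genes). Brdt, the testis bromodomain protein, measured 6.56 and 5.60 with VPA and 5.42 and 5.39 with NaBu (0.67), and Tex15, needed in meiosis, differed by 0.53 within both sets while its arrays overlapped across them. Hormad2, a protein of meiotic chromosome axes, differed by -0.64 and passed the filter on dim genes only through NaBu.

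Of 23 genes that carry, sense or activate short-chain fatty acids 16 were higher with VPA, 8 were higher in both sets and 0 lower. Those 8 are 34.8%, near the 31.4% of all genes below a log2 level of 5, where most of this list lies. Slc16a7, given above, was the furthest from 0. Slc16a1, the carrier MCT1, measured 10.27 and 10.23 with VPA and 10.25 and 10.21 with NaBu, with an interval from -0.27 to 0.31. Slc5a8, the sodium-coupled carrier of butyrate, was dim, at 4.32 and 4.07 against 4.03 and 3.94 (0.21, -0.09 to 0.50). Acss1, the mitochondrial acetyl-CoA synthetase, differed by 0.30 (0.01 to 0.60), its relative Acss3 by 0.25, named after its value had been seen, and Slc16a3 (MCT4), likewise named, by -0.11. Within fatty acid oxidation 13 of 36 genes were higher in both sets and 8 lower, and Acads, the short-chain acyl-CoA dehydrogenase that acts on butyrate, differed by 0.16 (-0.15 to 0.46).

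Lipid synthesis genes had 8 of 27 members higher in both sets and 7 lower, with Fasn, the fatty acid synthase, at 8.44 and 8.54 with VPA and 8.94 and 8.89 with NaBu (-0.43, -0.72 to -0.14). Of 33 glycolysis and hypoxia genes 15 were lower in both sets and 5 higher, with Pfkfb3 at -0.38. Oxidative stress genes and metallothioneins were even, 12 higher and 12 lower in both sets. Gstp1 measured 10.47 and 10.30 with VPA against 9.96 and 9.98 with NaBu (0.42, 0.12 to 0.71), and the untreated values of 10.36 and 9.96 spanned that gap.

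Ligands and regulators of the Wnt pathway had 22 of 51 members higher in both sets and 12 lower. Porcn, the acyltransferase that Wnt ligands need for secretion, was called lower among the brighter genes (-0.58), although its levels of 7.46 and 8.72 with VPA and 7.99 and 9.34 with NaBu followed the replicate number more than the compound. Tcf7l1, a repressor of Wnt and pluripotency targets, differed by -0.52. Among 35 FGF, ERK and Nodal genes 12 were higher in both sets and 14 lower, and Egr1 stood at one end while Fgf17, Fgf15 and Fgf4 stood at the other.

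Epithelial junction genes had 14 of 36 members higher in both sets and 4 lower, with a median of 0.19 in set 1 and -0.01 in set 2. Cldn6, a claudin of stem cells and early epithelia, measured 9.35 and 9.11 with VPA and 8.26 and 8.85 with NaBu, and untreated cells gave 8.002 and 8.76. Cldn4 differed by 0.41. Matrix genes were mixed, with Itgb3 (0.51) and Col11a1 (0.49) higher on both VPA arrays. Ccn2, a matrix protein counted in the feeder fibroblast list, differed by 0.44. Ccn1, its relative, named after its value had been seen, differed by 0.45.

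Feeder fibroblast genes had 14 of 37 members lower in both sets and 6 higher, and of the 15 feeder markers 10 were lower in both sets and 0 higher. Dcn, the proteoglycan decorin, measured 7.16 and 9.84 with VPA, 8.003 and 10.10 with NaBu and 7.73 and 9.81 untreated (-0.56, -0.90 to -0.21). Prrx1, a mesenchymal factor, measured 5.59 and 7.99 against 6.66 and 8.15. Both genes were lower with VPA within each set, and both differed more between the replicate numbers than between the compounds. Ccn2, of the same list, went the other way, at 10.004 and 10.237 with VPA and 9.505 and 9.853 with NaBu. Its VPA arrays both lay above its NaBu arrays. Col1a1 differed by -0.24 (-0.53 to 0.06), and the part of feeder RNA in any other difference was not tested. Actb, the beta actin gene, differed by 0.05 (-0.24 to 0.34).

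**Figure D5:**
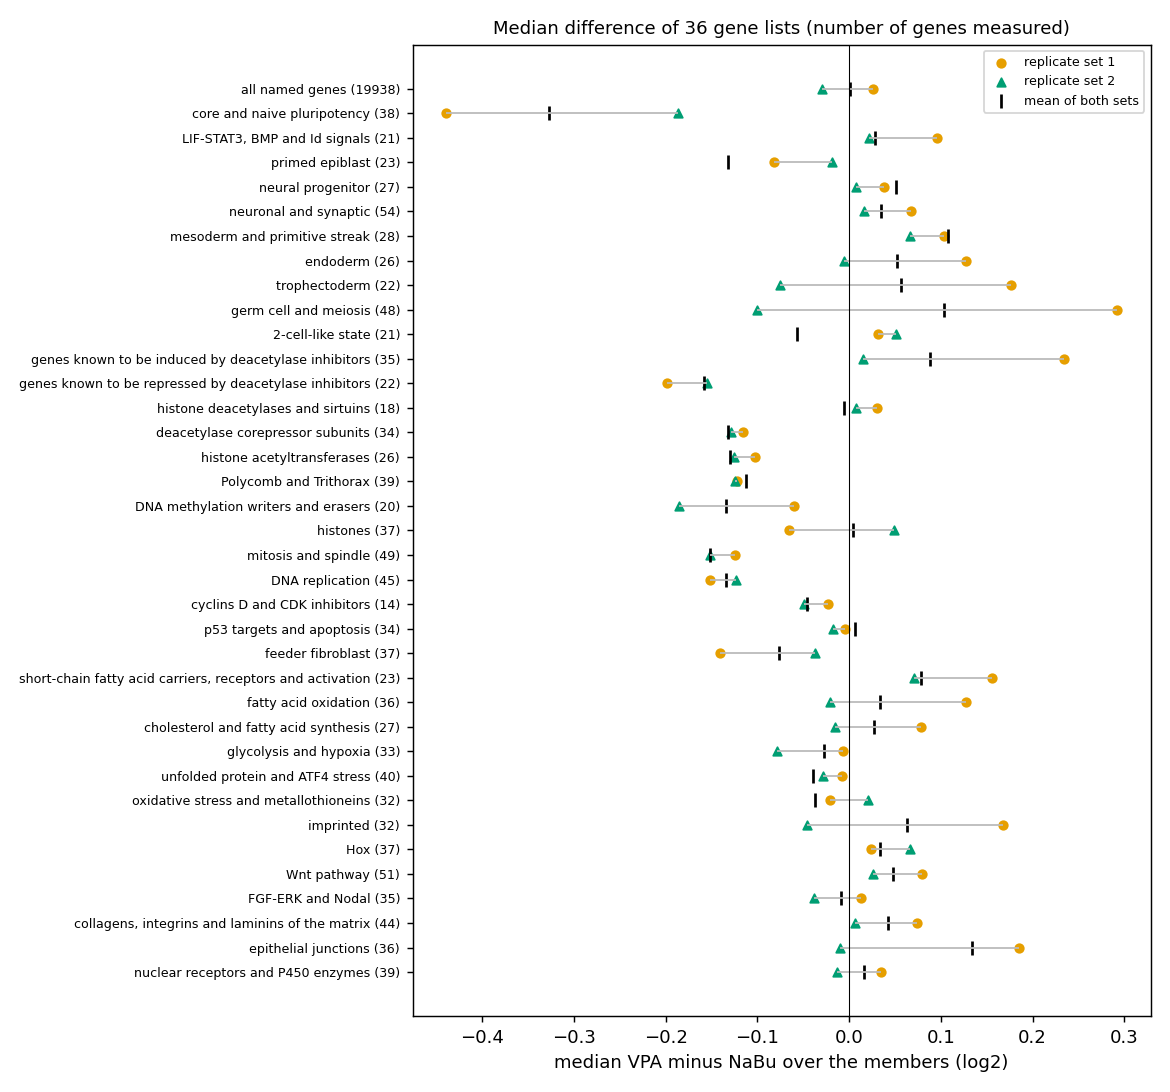
Median difference between VPA and NaBu (log2, horizontal axis) of 36 gene lists and of all named genes, with the number of genes measured; circles are set 1, triangles set 2 and black ticks the median of the mean over both sets. The pluripotency list lies furthest from 0, at -0.33, with -0.44 in set 1 and -0.19 in set 2.

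Among the remaining lists, imprinted genes had 10 of 32 members higher in both sets and 6 lower, with Grb10, a growth inhibitor, at -0.45. The heat shock gene Hspa2 differed by 0.43, the meiotic cohesin gene Rec8 by 0.44 and the oocyte factor Figla by 0.39. All of these were named after their values had been seen. Hox genes, of which 2 reached the median level of all genes, had 16 of 37 members higher in both sets and 8 lower. The p53 target and apoptosis genes were even, with 9 of 34 higher in both sets and 10 lower, and Pmaip1, which encodes the death factor Noxa, at 0.33 (0.03 to 0.63). Of 40 unfolded protein and ATF4 stress genes 8 were higher in both sets and 10 lower, of 21 genes of the 2-cell-like state 6 and 3, of 26 endoderm genes 8 and 3, of 23 primed epiblast genes 2 and 7, of 14 cyclin D and CDK inhibitor genes 4 and 7, and of 39 nuclear receptor and P450 genes 14 and 11.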

How the data were processed

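Total RNA of 6 samples of E14 cells was hybridised to Affymetrix mouse gene arrays. The deposited table holds log2 values, 1 per probeset and array, which the authors made by RMA in version 1.1 of Expression Console, as the submitters' processing notes name it. Neither the RMA settings nor the library files and build were given in the sources used here. Of 35556 probesets, 21789 carried 1 gene symbol, 1621 several and 12146 were not listed in the annotation, and the last 2 kinds were not analysed here. For 999 genes with several probesets the one with the highest mean over the 6 arrays was used, which left 19938 genes.

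The 4 arrays were fitted with limma 3.58.1 in R 4.3.3 (lmFit, eBayes without trend) with the replicate number as a block, and p-values were adjusted by Benjamini-Hochberg over all genes, with a threshold of 0.05. Intervals in parentheses are 95% intervals of this model. The pairing follows the replicate numbers of the titles, which the labels do not explain. Deviations from the group mean correlated between arrays of the same number, with r over genes of 0.567 between VPA and NaBu, 0.558 between untreated and VPA and 0.693 between untreated and NaBu. Without the replicate block 0 genes were called. The labels do not say whether replicates were separate cultures, so p-values reach no further than these samples, and 2 arrays a group limit the precision. The blocked fit has 1 residual degree of freedom for each gene, beside 10.9 prior degrees of freedom estimated over all genes. The p-values and intervals therefore rest mostly on a variance shared between genes, not on the spread of the gene itself.

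The comparison and the 36 gene lists (1075 distinct genes measured) were chosen with earlier results of these data known, so lists are described by counts and medians with no test of their own. Named genes were first the 12 with the largest statistics in each direction, with a difference of at least 0.5 and the same sign in both sets. In that ranking, numbered or clone-type symbols (such as LOC, Gm and Rik), receptor families of smell and small RNAs were skipped. The 3 members of each list furthest from 0 with the same sign in both sets, and a set of fixed genes, were added. Any other is marked as named after its value was seen. The code was checked on simulated data. Alternatives were the block, the untreated arrays in the fit, centring, quantile normalization, filters on dim genes, the probeset rule, eBayes with trend and leaving out each array or replicate number.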

Additional observations from a re-analysis of the deposited data

How the results depend on the processing

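The number of called genes moved with most choices. It was 1 (Gpm6a, with 0 genes called lower and 924 lower at an unadjusted p under 0.05) as reported, and again 1 with trend and robust eBayes. It was 0 in limma without the replicate block (526 genes at an unadjusted p under 0.05), with 6 arrays and the block (2150), with 6 arrays and no block (724), with median centring (1840), with quantile normalization (1659) and with the mean of all probesets (1898). It was 81 (19 higher, 62 lower) when the dimmer 9969 genes were left out and 61 (12 higher, 49 lower) at or above a log2 level of 6. Without any 1 of the 4 arrays, in fits with no block, it ranged from 0 to 0, with 224 to 972 genes at an unadjusted p under 0.05. The filters lowered the unadjusted p-values too, that of Prdm14 from 5.63e-05 to 5.99e-07 at the median level, with an unchanged difference. The prior degrees of freedom that limma estimates over the genes went from 10.9 to 20.3 there. The cause of the changes in counts and p-values was not tested. The median of the mitosis list was -0.19 with median centring and -0.10 with quantile normalization, and that of the replication list -0.17 and -0.10. With 1 array or replicate number left out, the mitosis median ranged from -0.16 to -0.068, the replication median from -0.27 to -0.017, the neuronal median from -0.014 to 0.099 and the pluripotency median from -0.44 to -0.19. Among the named genes, median centring turned the difference of Hdac3 to -0.021 and of Slc16a1 to -0.014, quantile normalization took that of Actb to 0.000, and no other alternative that kept the 4 arrays turned a sign. Leaving out 1 array or replicate number turned the sign of 25 genes, with ranges from -0.84 to 0.10 for Zic5, from -0.085 to 1.92 for Nefm, from -1.14 to 0.33 for Tdpoz3, from -0.24 to 1.00 for Arg2 and from -0.48 to 1.22 for Tmem92. Further ranges were from -0.69 to 0.016 for Mdm4, from -1.82 to 0.58 for Prrx1, from -1.90 to 0.79 for Dcn, from -0.087 to 1.04 for Ehhadh and from -0.62 to 1.13 for Ero1a. Further ranges were from -0.54 to 0.002 for Cth, from -1.25 to 0.099 for Porcn, from -0.13 to 0.94 for Cldn4, from -0.23 to 1.02 for Cldn7 and from -0.097 to 0.42 for Sox2. Further ranges were from -0.28 to 0.033 for Klf4, from -0.66 to 0.021 for Zfp42, from -0.17 to 0.29 for Hdac1, from -0.32 to 0.10 for Hdac2 and from -0.14 to 0.17 for Hdac3. Further ranges were from -0.55 to 0.086 for Myc, from -0.90 to 0.42 for Col1a1, from -0.001 to 0.044 for Slc16a1, from -0.009 to 0.33 for Acads and from -0.011 to 0.11 for Actb. These fits break a pair and so hold the difference between the replicate numbers. Slc16a3 also differed in sign between the 2 replicate sets. The blocked fit leaves 1 residual degree of freedom.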
